A study of Homo sapiens with 6 samples.

Results

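The data described here are the transcripts of 9 transcription factors that set myeloid identity, SPI1, CEBPA, CEBPD, CEBPE, GFI1, IRF8, KLF4, RUNX1 and GATA2. They were chosen by gene symbol, and all 9 were found among the 56305 genes counted. All 9 were also among the 20399 genes that passed the expression filter and were tested. The cells were MOLM13, an established human acute myeloid leukemia (AML) line that carries a FLT3 internal tandem duplication and the t(9;11)(p22;q23) translocation. They received either DMSO, the vehicle (3 libraries), or 1 μM of ZW27941 (3 libraries) for 24 h before bulk RNA sequencing. ZW27941 is a PROTAC, a bifunctional molecule that brings METTL3 to the VHL ubiquitin ligase for degradation, and METTL3 is the catalytic subunit of the m6A RNA methyltransferase. A single cell line stands behind all 6 libraries, and no inactive control compound was sequenced.

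Myeloid cells are made by a small set of DNA-binding proteins that act in combination and in competition. SPI1 encodes PU.1, the ETS factor needed for all myeloid lineages. CEBPA starts the granulocyte and monocyte programme, CEBPE acts late in granulocytes, and CEBPD is a related factor induced during maturation and inflammation. IRF8 favours monocytes and dendritic cells over granulocytes, KLF4 acts with it in monocytes, and GFI1 is a repressor that favours granulocytes. RUNX1 is required for blood stem cells to form, and GATA2 maintains stem cells, progenitors and the mast cell lineage.

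ZW27941 moved few of these factors by much. KLF4 rose 1.29-fold, SPI1 1.08-fold and CEBPA 1.06-fold, while IRF8 fell to 0.921 of its DMSO level. These 4 of the 9 passed an adjusted p under 0.05 in edgeR's quasi-likelihood test, 3 higher and 1 lower. Over all genes tested, 30.1% passed, 16.3% higher and 13.8% lower, and a count of 4 in 9 is near that background. The balance of directions depended on scaling, with 3333 genes higher and 2816 lower by TMM and 2644 higher and 3643 lower by upper quartile normalization. The other 5 factors, CEBPD, CEBPE, GFI1, RUNX1 and GATA2, did not pass. In bulk RNA, fewer cells of a type and less RNA per cell cannot be told apart.

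The bases before an annotated transcription start of 3 of the factors that passed are shown so that a reader can see the sequence around their promoters, taken from windows of 250 bases. Sequences are from RefSeq (GRCh38.p14), which gave start sites for 7 of the 8 factors looked up, CEBPD not being looked up. SPI1 had no entry. Bases next to the start that are exonic in GENCODE v29 were left out, which leaves 250 bases for KLF4, 220 for CEBPA and 109 for IRF8. IRF8 had 2 start sites, and the window of the one not shown was wholly exonic. The stretches of KLF4 and IRF8 lie inside the gene spans of GENCODE v29, which hold transcripts that start further upstream. Capitals mark exact matches, on either strand, to letters bound by the factors of the set. These were GAGGAA for SPI1, TTGCNNAA for C/EBP factors, TGTGGT for RUNX factors, AGATAA for GATA factors, AAATCA for GFI1, GGGTGT for KLF factors and, for IRF factors, 2 copies of GAAA spaced by 2 bases. No matches marked here overlap. The 3 sequences read 5′ to 3′ on the strand of the gene, at chr9:107489770-107490019 (minus strand), chr19:33302565-33302784 (minus strand) and chr16:85902580-85902688 (plus strand).
KLF4: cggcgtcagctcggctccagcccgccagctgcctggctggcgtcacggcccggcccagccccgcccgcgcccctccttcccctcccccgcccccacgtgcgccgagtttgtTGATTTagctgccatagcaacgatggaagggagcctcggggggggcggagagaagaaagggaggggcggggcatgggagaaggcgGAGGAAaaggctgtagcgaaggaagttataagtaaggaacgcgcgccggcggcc
CEBPA: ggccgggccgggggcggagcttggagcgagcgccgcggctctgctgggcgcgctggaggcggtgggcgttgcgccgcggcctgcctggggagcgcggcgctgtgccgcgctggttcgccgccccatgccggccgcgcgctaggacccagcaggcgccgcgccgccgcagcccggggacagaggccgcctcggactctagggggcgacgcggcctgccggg
IRF8: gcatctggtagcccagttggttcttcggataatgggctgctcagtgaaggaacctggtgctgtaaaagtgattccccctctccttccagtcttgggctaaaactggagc

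In KLF4 the capitals are an AAATCA match on the other strand, 139 to 134 bases before the start, and a GAGGAA match 54 to 49 bases before it. The stretch of CEBPA holds no match to any of the 7 motifs. That of IRF8 holds none in the bases shown, but the window has a TGTGGT match 134 to 129 bases before the start, among the exonic bases left out. The GC content and the counts of start sites use whole windows. GC content of the whole 250 bases was 81.2% for CEBPA, 69.2% for KLF4 and 55.6% for IRF8, against a median of 58.0% over 35116 promoters. Over the 11 start sites listed for 7 of the factors, GAGGAA was found in 5, GGGTGT in 3, TGTGGT in 2, TTGCNNAA and AAATCA in 1 each, and the other motifs in 0. The shares of all promoters with a match were 23.6% for GAGGAA, 13.5% for GGGTGT, 11.0% for TGTGGT, 9.05% for TTGCNNAA, 11.6% for AAATCA, 9.17% for AGATAA and 3.02% for the IRF letters. Start sites of one gene lie near each other and are not independent, and a match of letters does not show binding.

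The libraries held 143454176 to 178744976 counts on genes. ZW27941 replicate 3 stood apart from the other 2 ZW27941 libraries, with a chi-square of 11.5 and 7.88 per gene against them, where all other pairs within a group were between 4.35 and 5.16. Whether any libraries repeat one another cannot be read from these values, because counts may not be independent molecules. The transcript of METTL3 was at 120, 122 and 122 CPM (TMM-scaled counts-per-million) in DMSO and 119, 121 and 128 CPM on ZW27941 (log2 fold change 0.013, SE 0.028, adjusted p = 0.765 from edgeR). Because the degrader acts on the protein, this transcript does not check the labels. METTL14, the partner of METTL3, had a log2 fold change of 0.17 (adjusted p = 1.06e-04 from edgeR) and WTAP, which holds the complex at its target RNA, one of 0.067 (adjusted p = 0.0501 from edgeR). Of 8 monocyte markers 3 were higher and 2 lower, with a summed level of 1253 to 1299 CPM in DMSO and 1462 to 1530 CPM on ZW27941, most of it LYZ. Their part in the results below was not tested. Among them LYZ, ITGAM, CD33, CSF1R and FCGR1A were detected at a mean of 36.2 CPM or more in each group, while CD14 and CD68 were at 1.54 CPM or less. CD34, KIT and PROM1 of the 6 progenitor markers were at 0.417 CPM or less, with a summed level for the list of 757 to 774 CPM in DMSO and 764 to 772 CPM on ZW27941. The others were detected. FLT3 was at 563 CPM in DMSO and 555 CPM on ZW27941 and did not pass. MPO was higher, at 175 CPM in DMSO and 187 CPM on ZW27941, and CD38 was lower, at 27.2 and 25.2 CPM. The haemoglobin genes HBA1, HBB and HBG1 of the erythroid list and PF4 and PPBP of the megakaryocyte list had 0 counts in every library. These lists were not silent. EPOR of the erythroid list was at 30.7 CPM in DMSO and 31.0 CPM on ZW27941. ITGA2B of the megakaryocyte list was at 1.59 CPM in DMSO and 1.84 CPM on ZW27941. Apart from PAX5 and TRAC, the B cell and T cell markers were at 1.54 CPM or less. Summed levels of the mature neutrophil list were 1.79 to 2.37 CPM in DMSO and 2.48 to 2.70 CPM on ZW27941.

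Per length, the 9 factors spanned levels from 1.03 to 201 RPKM (CPM per kilobase of annotated exon, group means in DMSO). CEBPA was the highest at 201 ± 0.698 RPKM (SD, n = 3) in DMSO and lay at the 99.0th percentile of the genes with a length. IRF8 followed at 156 ± 3.88 RPKM, then SPI1 at 83.0 ± 0.892 RPKM and GFI1 at 32.3 ± 0.0810 RPKM (SD, n = 3 each). RUNX1 was at 16.03 ± 0.245 RPKM, CEBPD at 11.2 ± 0.123 RPKM and KLF4 at 5.42 ± 0.174 RPKM (SD, n = 3 each). The lowest were GATA2 at 1.06 ± 0.0730 RPKM and CEBPE at 1.03 ± 0.0548 RPKM (SD, n = 3 each), whose levels overlapped. No other neighbours in this order overlapped in DMSO or on ZW27941. With the longest transcript of each gene as the length, IRF8 came before CEBPA, and the other 7 kept their place. The factors of the stem cell and late granulocyte stages were the least abundant of the set, and CEBPA, IRF8 and SPI1 the most.

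**Figure D1:**
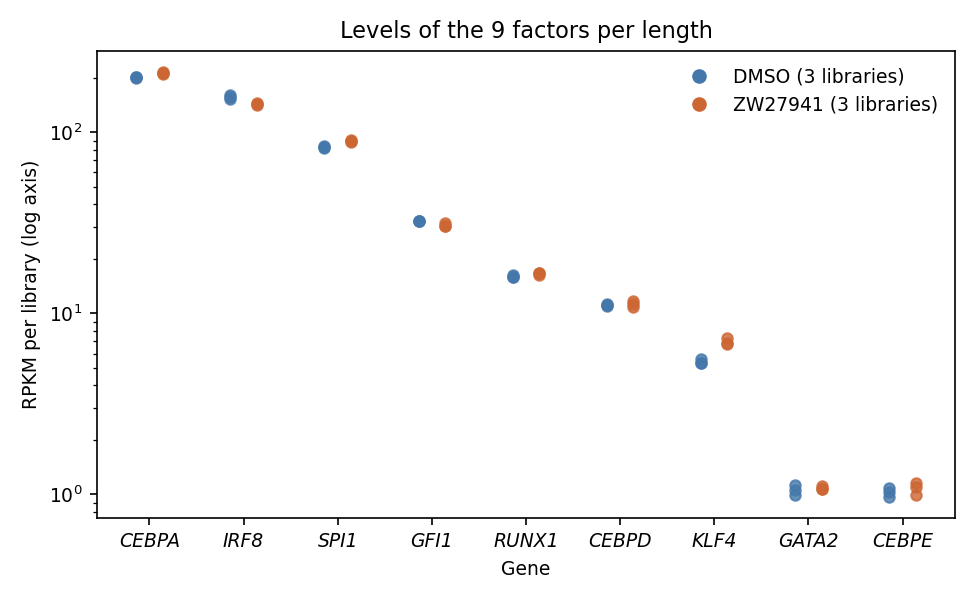
Level of each factor in RPKM (log axis) in the 3 DMSO libraries (blue) and the 3 ZW27941 libraries (orange), 1 point per library, in order of the mean over all libraries. The order from CEBPA to CEBPE is the same in both groups up to the overlap of GATA2 and CEBPE, and shifts between groups are small against the spread of levels from 1.03 to 201 RPKM.

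KLF4, a Krüppel-like zinc finger factor of monocytes, changed most. It was at 20.5, 19.3 and 19.6 CPM in the DMSO libraries and at 26.7, 25.2 and 24.8 CPM in the ZW27941 libraries. Every ZW27941 library was above every DMSO library. The log2 fold change was 0.37 (SE 0.036, 95% interval 0.29 to 0.44, adjusted p = 1.15e-07 from edgeR), which ranked KLF4 152nd of all genes tested by p. Its absolute change exceeded that of 85.6% of the genes tested, where the median was 0.12. The gene lies at chr9:107484852-107490482 on the minus strand of GRCh38. The rise was 0.39 without ZW27941 replicate 3, the library that stood apart. The genes whose log2 CPM moved most like KLF4 over the 6 libraries, of 12230 searched, were C17orf67, KIF14 and LLPH, at a root mean square difference of 0.017, 0.023 and 0.026 on the log2 scale.

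IRF8, the interferon regulatory factor that favours monocytes, moved the other way. It was at 825, 805 and 785 CPM in DMSO and at 730, 741 and 753 CPM on ZW27941. The groups did not overlap, but the lowest DMSO library and the highest ZW27941 library were closer to each other than the highest and lowest DMSO libraries were. The log2 fold change was −0.12 (SE 0.026, 95% interval −0.17 to −0.065, adjusted p = 0.00130 from edgeR). The gene lies at chr16:85898803-85922609 on the plus strand and is the only one of the 9 on that strand. Without ZW27941 replicate 3 the fall was larger, at −0.13. TCEB2, PIAS3 and LYRM4 had the patterns nearest to IRF8, at 0.011, 0.012 and 0.012.

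SPI1, the gene of PU.1, rose. Its values were 170, 173 and 172 CPM in DMSO and 186, 182 and 188 CPM on ZW27941. All ZW27941 libraries lay above all DMSO libraries, and the log2 fold change was 0.11 (SE 0.024, 95% interval 0.059 to 0.16, adjusted p = 0.00140 from edgeR). The gene lies at chr11:47354860-47378576.

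CEBPA rose by less than SPI1. It was at 531, 530 and 528 CPM in DMSO and at 561, 551 and 566 CPM on ZW27941, without overlap. The log2 fold change was 0.080 (SE 0.024, 95% interval 0.030 to 0.13, adjusted p = 0.0141 from edgeR). This call was lost with upper quartile normalization (log2 fold change 0.056, adjusted p = 0.0844 from edgeR) and without DMSO replicate 3 (0.077, adjusted p = 0.0629 from edgeR). CEBPA is a single-exon gene at chr19:33299934-33302564. In GENCODE v29, 2 antisense genes on the other strand cover 25.0% and 18.3% of its exon, and the strand setting of the counting is not given in the sources used here, so reads of CEBPA and these genes may not have been separated.

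The transcript that starts from the other side of the CEBPA promoter went against CEBPA. CEBPA-AS1, called CEBPA-DT in later annotation, is a long non-coding RNA on the opposite strand, separated from CEBPA by 292 bases. It was at 25.7, 26.5 and 25.8 CPM in DMSO and at 20.2, 20.7 and 22.6 CPM on ZW27941. All ZW27941 libraries were below all DMSO libraries, and the log2 fold change was −0.29 (SE 0.037, adjusted p = 3.68e-06 from edgeR). The number of CEBPA counts per CEBPA-AS1 count, a ratio that does not depend on library scaling, went from 20.4 ± 0.359 to 26.5 ± 1.33 (SD, n = 3 each). The ratio did not overlap between groups (exact permutation test, two-sided, p = 0.1, the smallest that 3 against 3 can give). GATA2-AS1, which lies opposite GATA2 and shares no exonic base with it, was at 14.7 CPM in DMSO and 14.8 CPM on ZW27941 and did not pass (adjusted p = 0.868 from edgeR). SPIDR, a protein-coding gene on the strand opposite CEBPD and 602 bases from it, was at 77.5 CPM in DMSO and 79.7 CPM on ZW27941 and did not pass (adjusted p = 0.262 from edgeR). The non-coding transcripts CTD-2540B15.7, CTD-2540B15.9, CEBPB-AS1, LINC01426 and MIR6774, the last in an intron of IRF8, were at 1.17 CPM or less and did not pass.

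GFI1, the zinc finger repressor of the granulocyte branch, missed the threshold narrowly. Its values were 107, 107 and 106 CPM in DMSO and 105, 100 and 99.8 CPM on ZW27941. The groups did not overlap, and ZW27941 replicate 1 was the nearest to DMSO. The log2 fold change was −0.068 (SE 0.026, 95% interval −0.12 to −0.014, adjusted p = 0.0514 from edgeR). It passed in 6 of 15 other settings, among them DESeq2 (adjusted p = 0.0242), and was below 0 in all 15.

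RUNX1, the runt domain factor, was at 248, 247 and 254 CPM in DMSO and at 261, 261 and 253 CPM on ZW27941. ZW27941 replicate 3 fell within the DMSO range and the other 2 lay above it. The log2 fold change was 0.049 (SE 0.024, 95% interval −0.0015 to 0.10, adjusted p = 0.139 from edgeR), and without that library it was 0.061 (adjusted p = 0.0475 from edgeR).

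CEBPD and CEBPE, the other C/EBP factors, overlapped between the groups. CEBPD was at 24.3, 24.1 and 24.6 CPM in DMSO and at 25.6, 23.5 and 24.6 CPM on ZW27941 (log2 fold change 0.0145, 95% interval −0.056 to 0.085). CEBPE, with 228 to 287 counts per library, was at 1.61, 1.51 and 1.68 CPM and at 1.55, 1.70 and 1.80 CPM (log2 fold change 0.067, 95% interval −0.13 to 0.27). For CEBPD a change beyond 0.085 in either direction lies outside the interval, while for CEBPE the interval is wide enough to hold a rise as large as that of SPI1.

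GATA2, the factor of stem and progenitor cells, was at 5.06, 4.41 and 4.70 CPM in DMSO and at 4.99, 4.79 and 4.79 CPM on ZW27941. The ZW27941 values all lay within the DMSO range. The log2 fold change was 0.042 (95% interval −0.10 to 0.18, adjusted p = 0.696 from edgeR), on 665 to 900 counts per library.

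**Figure D2:**
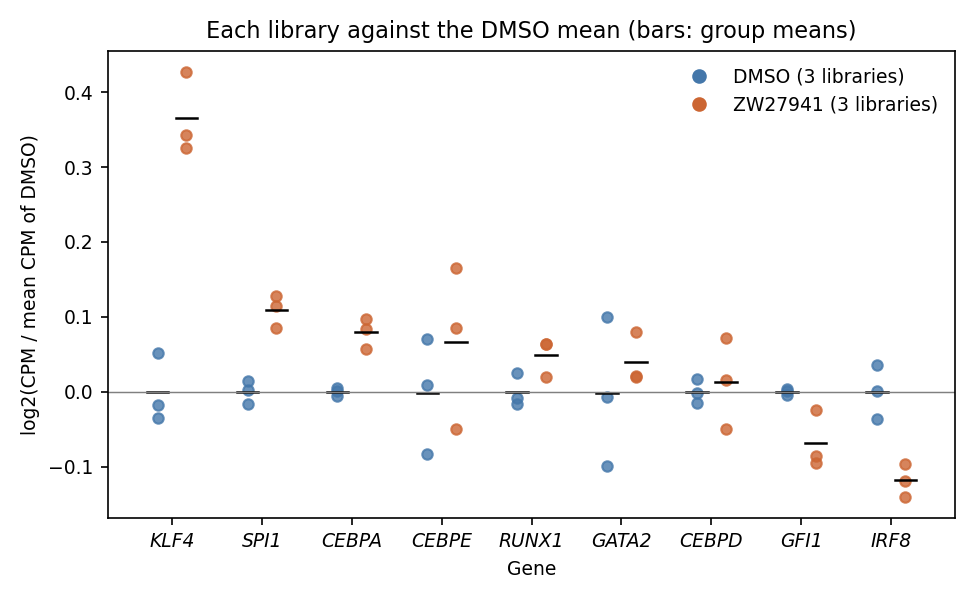
Each library's CPM as log2 over the mean of the 3 DMSO libraries, for the 9 factors in order of fold change (DMSO blue, ZW27941 orange, 1 point per library, bars at group means). The 3 ZW27941 points of KLF4, SPI1 and CEBPA lie above all DMSO points and those of GFI1 and IRF8 below them.

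Groups did not overlap in 5 of the 9 factors, KLF4, SPI1, CEBPA, GFI1 and IRF8, where 41.6% of all genes tested did not overlap. The variation between replicates was small, with a coefficient of variation from the fitted dispersion of 2.12% to 2.90% in the 7 more abundant factors, 5.40% in GATA2 and 6.60% in CEBPE. The median log2 fold change of the 9 was 0.049, and that of all genes tested was −0.0019.

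**Figure D3:**
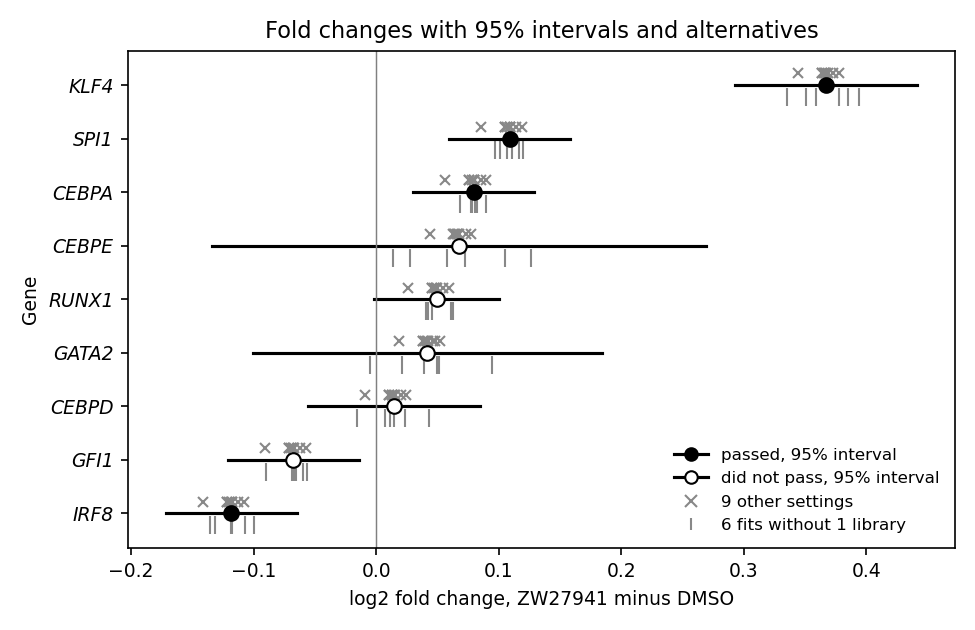
Fold change of each factor on the log2 scale, ZW27941 minus DMSO, with its 95% interval (black line; filled where the adjusted p was under 0.05, open where it was not). Crosses are the values under 9 other settings and ticks those of 6 fits that each left out 1 library. KLF4, SPI1, CEBPA and IRF8 stay on 1 side of 0 under every setting shown. So do GFI1, RUNX1 and CEBPE, which did not pass, while CEBPD and GATA2 do not.

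Ratios of counts between factors were computed because they do not depend on how libraries are scaled. CEBPA starts the programme of both granulocytes and monocytes, and IRF8 favours monocytes, so their ratio does not measure a choice between the 2 lineages. There were 0.644, 0.658 and 0.672 CEBPA counts per IRF8 count in DMSO and 0.768, 0.744 and 0.752 on ZW27941. The SPI1 to IRF8 ratio went from 0.214 ± 0.00690 to 0.250 ± 0.00434 and the KLF4 to IRF8 ratio from 0.0246 ± 0.000520 to 0.0345 ± 0.00181 (SD, n = 3 each). These 3 ratios did not overlap between groups (exact permutation test, two-sided, p = 0.1 for each, the smallest that 3 against 3 can give). The GFI1 to IRF8 ratio overlapped, at 0.133 ± 0.00311 and 0.137 ± 0.00569 (SD, n = 3 each, exact permutation p = 0.4), as did SPI1 to GATA2, 2 factors that antagonise each other, at 36.5 ± 2.89 and 38.1 ± 0.968 (SD, n = 3 each, exact permutation p = 0.5). The ratios were chosen after the values of the factors had been seen, and 6 were computed in all, including CEBPA to CEBPA-AS1. None passes, since no unadjusted p can be below 0.1.

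Relatives of the 9 factors in the C/EBP, ETS, IRF, KLF, RUNX, GFI1 and GATA families were listed by name. Of 37 such genes 27 were tested, 6 were higher, 3 were lower and 18 did not pass, with a median log2 fold change of 0.021. DDIT3, a C/EBP relative of the stress response that dimerizes with other members, fell from 30.6 ± 2.35 to 18.3 ± 0.746 CPM (SD, n = 3 each), a log2 fold change of −0.74 (adjusted p = 6.03e-11 from edgeR). CEBPG, a short C/EBP protein without an activation domain, rose from 141 ± 1.17 to 155 ± 2.52 CPM (SD, n = 3 each; log2 fold change 0.14, adjusted p = 1.05e-04 from edgeR). The other 2 that fell were IRF1 and IRF7, both induced by interferon, at −0.14 and −0.20. Other members of the IRF family rose, IRF3 by 0.11 and IRF5 by 0.13 on the log2 scale. GFI1B, GATA1, KLF1, IRF4 and SPIC, factors of erythroid, lymphoid or splenic macrophage cells, were at 0.0606 CPM or less in each group and were not tested. Without DMSO replicate 1, 3 of the relatives were higher.

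Of 40 other transcription factors of blood cells 37 were tested, 14 were higher, 6 were lower and 17 did not pass, with a median of 0.061. ETS1 rose from 47.4 ± 1.67 to 60.1 ± 1.94 CPM and ETS2 from 99.3 ± 0.985 to 119 ± 0.282 CPM (SD, n = 3 each), log2 fold changes of 0.34 and 0.26 (adjusted p = 4.79e-08 and 6.27e-08 from edgeR). Both are founding members of the ETS family to which SPI1 belongs. Of the 6 that were lower, EGR1 and MAF had log2 fold changes of −0.43 each. Among the 14 that were higher, TFEC rose by 0.23, MITF by 0.15 and VDR by 0.11. MNDA, a nuclear antigen of myeloid cells, was higher at 0.34. Without DMSO replicate 2, 9 of these factors were higher.

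Proteins that work with the 9 factors moved in both directions. Of 20 symbols listed for partners and regulators, with 1 gene under both its older and newer symbol, 18 were tested, 3 were higher and 5 were lower. CBFA2T2, a corepressor of the family fused to RUNX1 in other leukemias, fell from 29.4 ± 0.777 to 25.7 ± 0.725 CPM (SD, n = 3 each; log2 fold change −0.19, adjusted p = 1.01e-04 from edgeR). KDM1A, the demethylase recruited by GFI1, fell by 0.081 on the log2 scale, HDAC2 by 0.087 and HDAC3 by 0.10. JUN, a coactivator of SPI1, fell by 0.20. Among the 3 that were higher, SIN3A rose by 0.074 and CBFA2T3 by 0.076. Without ZW27941 replicate 3, 7 of the partner genes were higher. Without DMSO replicate 3, ZW27941 replicate 1 or ZW27941 replicate 2 only 1 was higher. Without ZW27941 replicate 1, 2 were lower. CBFB, the partner of RUNX1, had a log2 fold change of 0.072 and did not pass (adjusted p = 0.0639 from edgeR).

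Genes known as targets of each factor were then described by counts, with several genes in more than 1 list. Of 14 SPI1 targets 6 were higher and 3 lower, with a median of 0.0063. CSF1R, the receptor of the monocyte growth factor, rose from 48.2 ± 0.517 to 63.8 ± 1.30 CPM (SD, n = 3 each; log2 fold change 0.40, adjusted p = 4.69e-10 from edgeR). NCF1, a subunit of the phagocyte oxidase with near-identical pseudogenes, fell from 136 ± 4.94 to 92.0 ± 2.54 CPM (SD, n = 3 each; log2 fold change −0.57, adjusted p = 8.19e-12 from edgeR). The targets of SPI1 did not move in 1 direction, and without ZW27941 replicate 1 only 1 was lower.

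Of 15 targets of C/EBP factors 9 were tested, and 7 of these were higher and 0 lower in edgeR's quasi-likelihood test. The count lower was also 0 at an unadjusted p under 0.05 and in DESeq2. PRTN3 and AZU1, proteins of the primary granules, rose from 175 ± 2.68 to 221 ± 7.24 CPM and from 1074 ± 24.1 to 1295 ± 39.3 CPM (SD, n = 3 each), log2 fold changes of 0.34 and 0.27 (adjusted p = 5.34e-09 and 2.03e-07 from edgeR). The median of the 9 was 0.18, against −0.0019 for all genes tested. The 6 targets not tested, LTF, LCN2, MMP8, PGLYRP1, OLFM4 and CRISP3, belong to later granulocytes and were at 0.0156 CPM or less in each group. The list was chosen with earlier results of these libraries known and is not independent evidence of its direction.

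Of 11 targets of IRF8 2 were higher and 3 lower, with a median of −0.013. CD74, the invariant chain of HLA class II, fell from 318 ± 2.43 to 271 ± 4.52 CPM, and CTSC, a protease that activates granule enzymes, rose from 158 ± 2.02 to 187 ± 1.91 CPM (SD, n = 3 each; log2 fold changes −0.23 and 0.24, adjusted p = 3.06e-07 and 1.43e-07 from edgeR). The other 2 that fell were CIITA, the activator of HLA class II genes, at −0.22, and PTPN13 at −0.17. Without DMSO replicate 2 or 3 or ZW27941 replicate 1 or 2, 1 of these targets was higher.

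Of 10 genes that GFI1 represses 9 were tested, 1 was higher (CSF1R; 2 without ZW27941 replicate 3) and 2 were lower. CDKN1A, the cell cycle inhibitor p21, fell from 326 ± 9.55 to 274 ± 4.83 CPM (SD, n = 3 each; log2 fold change −0.25, adjusted p = 2.26e-07 from edgeR), and EGR1, an early response factor of monocytes, had a log2 fold change of −0.43. Of 8 RUNX1 targets 4 were tested, 3 were higher and 0 lower, with 0 lower also at an unadjusted p under 0.05 and in DESeq2. CSF1R is one of these 3, and ELANE, neutrophil elastase, rose from 203 ± 4.37 to 232 ± 6.72 CPM (SD, n = 3 each; log2 fold change 0.20, adjusted p = 6.95e-06 from edgeR). The median log2 fold change of the 4 RUNX1 targets tested was 0.15. ALOX12, the 1 that did not pass, was at −0.38 (SE 0.39). Of 11 GATA2 targets 5 were tested and 1 passed. This was MS4A2, a chain of the mast cell IgE receptor, at 0.328 ± 0.0444 CPM in DMSO and 0.602 ± 0.105 CPM on ZW27941 (SD, n = 3 each; log2 fold change 0.87, adjusted p = 0.00115 from edgeR). The median of the 5 was −0.00084.

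**Figure D4:**
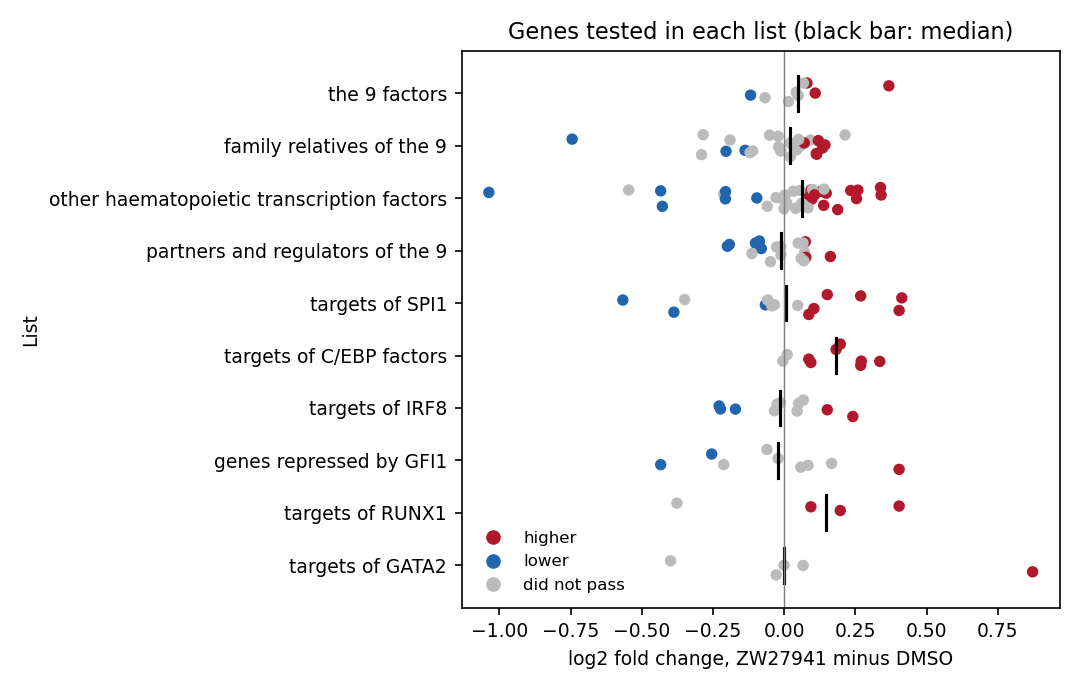
Log2 fold change, ZW27941 minus DMSO, of every tested gene in the set of 9 factors, their relatives and partners, and the targets of each factor (red higher, blue lower, grey not past an adjusted p of 0.05, black bar at the median). Genes of the C/EBP target list lie at or above 0 apart from 1 that did not pass, while those of SPI1, IRF8 and GFI1 lie on both sides.

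Features of the transcripts that the choice of genes did not use were also compared. GGACT, the most common form of the m6A consensus, occurred between 0 and 2.14 times per kilobase in the longest annotated transcripts of the 9 factors, against a median of 0.902 over the 15789 tested genes with a sequence, 77.4% of those tested, which is too few to compare with all genes. SPI1 had 2.14, KLF4 1.42 and CEBPA 1.14 per kilobase, and IRF8 had 0.330. Of those that did not pass, RUNX1 had 1.10 per kilobase, GATA2 0.891, GFI1 0.701, CEBPD 0.459 and CEBPE 0. Whether the longest transcripts were the ones expressed was not tested. GC content of these transcripts ran from 47.1% in RUNX1 to 70.0% in CEBPD, with a median of 48.7% over the same genes. These values describe sequence only, since methylation was not measured in these libraries.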

How the data were processed

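RNA was sequenced from MOLM13 cells after 24 h, in 3 libraries for the vehicle and 3 for 1 μM ZW27941. Per the labels, the authors used HISAT2, SAMtools 1.19.2 and HTSeq 2.0.3 on hg38, and deposited raw counts per gene symbol without normalization. The annotation and strand setting are not given in the sources used here. HTSeq's 5 tallies of unassigned reads (37.4% to 39.8% of reads tallied) were left out. The tallied totals of 229503413 to 287628269 reads per library exceed the 50M raw reads per sample that the labels state. The cause was not tested, and counts may not be independent molecules. Whether replicates were separate cultures is not stated, so p-values measure the spread between these libraries.

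Counts were analysed with edgeR 4.0.16 in R 4.3.3 (TMM, filterByExpr, quasi-likelihood test, Benjamini-Hochberg adjustment over 20399 genes, threshold 0.05), with DESeq2 1.42.0 and limma 3.58.1 voom as alternatives. The fit was tested on simulated data. Standard errors are the absolute log2 fold change over the root of the F statistic, and 95% intervals use its degrees of freedom. CPM used TMM factors from 0.994 to 1.01. Positions and exon lengths for RPKM came from GENCODE v29 (GRCh38), and names and promoters from RefSeq tables.

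The factors and gene lists were chosen with earlier results of these data known. Named genes are the 9 factors, METTL3, METTL14 and WTAP, in each list the 2 past the threshold with the lowest p, antisense genes with counts, and the 3 nearest patterns for the 2 factors with the lowest p. Other genes were named after their values were seen. A gene that this rule names is not reported here.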

Additional observations from a re-analysis of the deposited data

How the results depend on the processing

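The replicate numbers did not pair the libraries. The correlations of same-numbered deviations from the group means were −0.012, 0.012 and 0.017, and the replicate block left the calls of all 9 factors as they were, for CEBPA at a log2 fold change of 0.080 (adjusted p = 0.0178 from edgeR). With the block, 1 partner gene was called higher in place of 3.

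KLF4, SPI1 and IRF8 kept their direction and passed in all 15 other settings, with ranges of 0.34 to 0.39, 0.085 to 0.12 and −0.14 to −0.10. CEBPA did not pass with upper quartile normalization (0.056), and from 0.068 to 0.089 across the 6 fits without 1 library it was lost without DMSO replicate 3. GFI1 passed with RLE (−0.071), upper quartile normalization (−0.091), at least 10 counts in every library (−0.069), DESeq2 (−0.071) and limma-voom (−0.067), so that 2 of the 9 factors were lower in each of these, and without ZW27941 replicate 1 (range −0.090 to −0.056; factors lower 1 to 2). RUNX1 passed only without ZW27941 replicate 3 (range 0.041 to 0.062), which gave 4 factors higher. CEBPD, which was never called, changed sign with upper quartile normalization (−0.0090) and without ZW27941 replicate 1 (−0.016, range −0.016 to 0.043), and GATA2 without DMSO replicate 2 (−0.0048, range −0.0048 to 0.094). The cause of these changes was not tested.

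With upper quartile normalization 2644 genes were higher and 3643 lower, where TMM gave 3333 and 2816, and the median of all genes moved from −0.0019 to −0.025. It left 1 IRF8 target and 1 partner higher. Of the genes repressed by GFI1 2 were higher with library size only and with no filter, and of the m6A writers 2 with these, DESeq2 and limma-voom. With no filter 5 partners were higher. Without 1 library, relatives higher ranged from 3 to 5, other factors higher from 9 to 17, partners higher from 1 to 7 and lower from 2 to 5, IRF8 targets higher, GFI1-repressed genes higher and m6A writers higher from 1 to 2, and SPI1 targets lower from 1 to 3. With the longest transcript as length, IRF8 ranked 1 and CEBPA 2.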
